A study of Mus musculus with 18 samples.

Results

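Hyaluronan is a long unbranched sugar polymer of the extracellular matrix, and 8 genes that make, break or bind it were followed here across cultured mouse embryonic fibroblasts (MEF cells). They were taken by name from the 55450 genes of the deposited table: the hyaluronan synthases Has1, Has2 and Has3, the hyaluronidases Hyal1 and Hyal2, the hyaluronan-degrading protein Cemip, the cell surface receptor Cd44 and the matrix proteoglycan versican (Vcan). All 8 were found and all 8 passed the filter on low counts, which left 21161 genes for testing. Has2 was the gene of the set that moved most: TGF-β raised it 8.04-fold with the empty vector, 5.35-fold with the Col1a1-miR-29b vector and 6.71-fold with the CMV-miR-29b vector. Cd44 rose by a smaller factor with each vector, and Has1 rose with the empty vector.

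Hyaluronan synthases sit in the plasma membrane, join glucuronic acid and N-acetylglucosamine from their UDP-sugars, and push the growing chain out of the cell. Outside, the chain is held by receptors such as Cd44 and by proteoglycans such as versican, and it is taken apart by hyaluronidases and by Cemip. A matrix rich in hyaluronan is a known feature of fibroblasts in wounds and in fibrosis, where TGF-β is a main stimulus. The miR-29 family of microRNAs is known for lowering collagens and other matrix genes.

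The study asked whether miR-29b from a promoter that itself answers to fibrotic stimulation would limit matrix expression. MEF cells from a culture collection received by lipid transfection an empty pcDNA3 vector, a vector with miR-29b under a rat Col1a1 promoter (Col1a1-miR-29b) or the same vector under the viral CMV promoter (CMV-miR-29b). Each vector was followed 6 h later by 24 h of TGF-β or by no treatment, so that 6 groups of 3 libraries, 18 in all, were sequenced after selection of poly(A) RNA. By the study's methods both miR-29b vectors also carry a human miR-29b-1 sequence with EGFP and a red fluorescent protein as a transfection marker, and the control is described as empty, so that miR-29b and the other inserts cannot be told apart in a comparison with it. DNA was dosed by moles, which gave a larger DNA mass for Col1a1-miR-29b than for CMV-miR-29b, and no mass is stated for the empty vector. Promoter and DNA mass therefore cannot be told apart between the miR-29b vectors. All groups were transfected, no untransfected cells were analysed here, and transfected and untransfected cells of a well were sequenced together. Replicates are named by the letters of the library titles. With Col1a1-miR-29b, 1 library without and 1 with TGF-β have count columns whose letter, f, occurs in no title. They were placed by group and are called unlettered. No other group has such a library, and whether they were prepared or sequenced apart is not stated. P-values measure the spread between the libraries of a group.

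The libraries held 65898017 to 80332633 counts. Counts were scaled to each library's total with trimmed mean factors and are given as CPM, and genes were tested by edgeR's quasi-likelihood method in 1 fit of the 18 libraries, with p-values adjusted by Benjamini and Hochberg's procedure over 21161 genes; a gene is said to rise or fall where the adjusted p was under 0.05. Reads at Mir29b-1 checked the vectors: the 6 empty vector libraries had 0 counts, the Col1a1-miR-29b libraries 0 to 1 without and 2 to 6 with TGF-β, and the CMV-miR-29b libraries 110 to 309 without and 203 to 293 with TGF-β. The Col1a1-miR-29b libraries without TGF-β, and library d with TGF-β at 2 counts, were thus not above the 3 counts taken as the detection floor of a library. All these libraries count the longer transcript and not the mature microRNA. TGF-β raised Acta2, the smooth muscle actin of myofibroblasts, from 3.41 ± 0.32 to 10.6 ± 1.21 CPM (SD, n = 3) and Col1a1 from 989 ± 71.6 to 2362 ± 161 CPM with the empty vector. Of 10 fibroblast markers 8 averaged at least 1 CPM, while Thy1 was lower and Lum never exceeded 3 counts. Fewer cells of one kind and less RNA per cell cannot be told apart in such samples. Summed markers of other cell types also moved with TGF-β. The 3 smooth muscle markers, of which Smtn and Des averaged at least 1 CPM and Myh11 did not, summed to 103 to 117 CPM in the libraries without and 141 to 153 CPM in those with TGF-β. The 5 epithelial markers summed to 0.42 to 1.46 and 1.60 to 3.03 CPM and the 4 endothelial markers to 0.936 to 1.85 and 2.09 to 3.03 CPM, while the 5 leukocyte markers summed to 11.5 to 13.8 and 8.86 to 12.7 CPM with Cd3e at 3 counts or fewer. Krt14, Cdh5 and Cd68 were the only markers of these 3 lists to average 1 CPM. The part of these markers in the results for hyaluronan genes was not tested.

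Sequences of miR-29b and of its possible sites are shown because both transfected vectors carry this microRNA. The mature mouse miR-29b-3p, read from RefSeq, has its seed (bases 2 to 8) in capitals. It is followed by the stretches of the 3′ UTR (GENCODE, GRCm38) that hold the reverse complement of the seed in Has2 and Cd44, which rose with TGF-β with every vector, and by the only match in the set that also has the flanking A, in Has3; capitals mark the matched bases.
miR-29b-3p: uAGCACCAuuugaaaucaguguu
Has2, chr15:56666080-56666102, minus strand: tttatcttggcTGGTGCTgtgta
Cd44, chr2:102812874-102812896, minus strand: gctgtgtttgtTGGTGCTttcac
Has3, chr8:106879649-106879671, plus strand: aaagattgcgtTGGTGCTAaaaa
The longest annotated 3′ UTR of each gene was searched on the transcript's own strand for TGGTGCT and for GGTGCTA, which overlap in the longer match. Has3 held 3 matches, Cemip 2, and Has2 and Cd44 1 each, while the 3′ UTRs of Has1, Hyal1, Hyal2 and Vcan held neither word. A match was therefore present in 4 of 8 members. Over the 14375 tested genes with a 3′ UTR the share was 18.2%. Over the 2924 of them whose 3′ UTR was as long as those of the 4 genes (2032 to 4074 bases) it was 32.2%. That range was set by the members with a match. The 3′ UTRs of Has1, Hyal1, Hyal2 and Vcan were shorter, at 301, 1564, 1621 and 1919 bases. The share of 32.2% is therefore not matched in length to all 8 members. A match is a stretch of letters and was not tested as a site.

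Levels per transcript length were compared with the authors' FPKM values, which were used for 16 of the 18 libraries and not for the unlettered ones. With the empty vector and no TGF-β the order was Cd44 at 22.1 ± 0.61 FPKM (SD, n = 3), Hyal1 at 9.11 ± 1.06, Hyal2 at 3.39 ± 0.18, Has3 at 0.512 ± 0.055, Has2 at 0.436 ± 0.065, Has1 at 0.267 ± 0.089, Vcan at 0.102 ± 0.016 and Cemip at 0.0254 ± 0.0051. Only Has3 and Has2 and, by a narrow margin, Has2 and Has1 were close to each other in this order: the Has3 and Has2 libraries overlapped, and the highest Has1 library (0.366) lay just above the lowest Has2 library (0.364). With TGF-β Has2 moved up beside Hyal2, at 3.43 ± 0.85 against 3.85 ± 0.79 FPKM, and these neighbours did not differ beyond their spread. Has1 and Has3 then lay together at 0.608 ± 0.156 and 0.595 ± 0.179 FPKM. Cd44 and Hyal1 stood above every synthase in both conditions, at 35.2 ± 0.77 and 11.1 ± 0.77 FPKM with TGF-β. The level of Hyal1 is uncertain, since 1920 of its 3777 exon bases also belong to the gene Naa80 on the same strand.

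**Figure D1:**
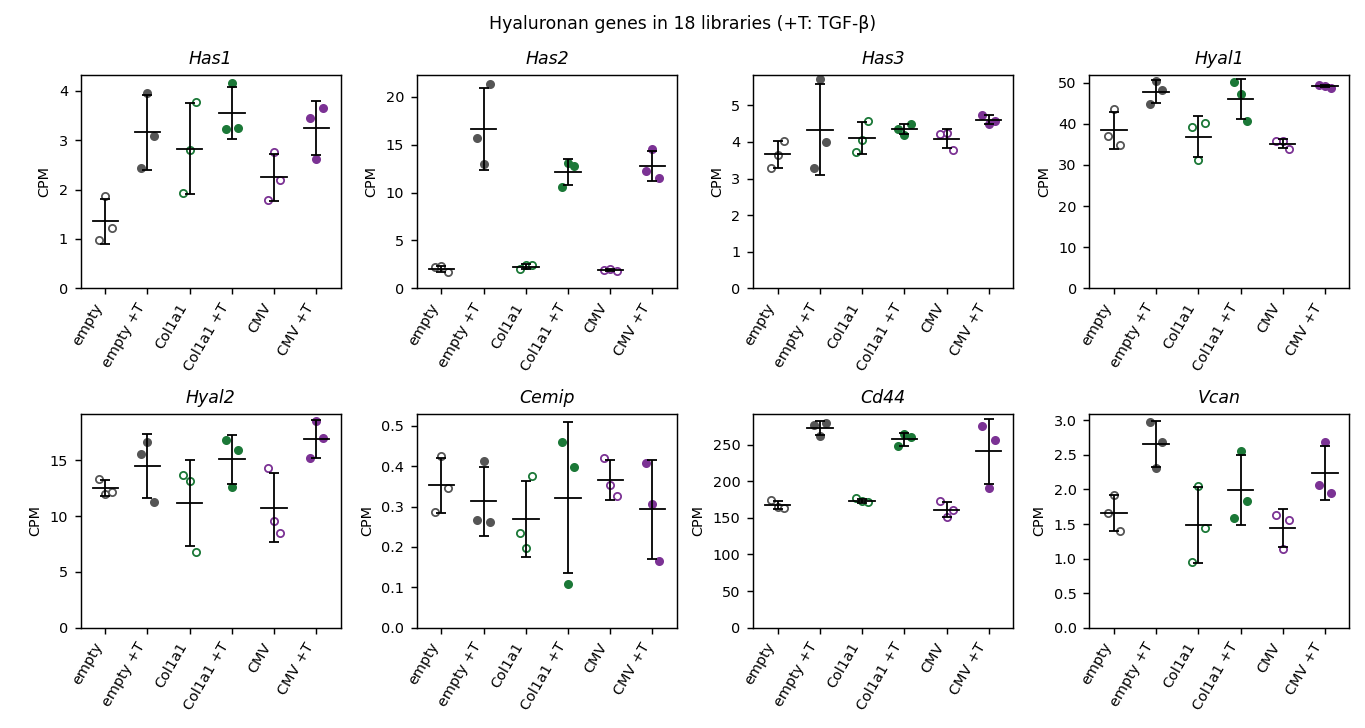
Scaled counts (CPM, y axis, from 0) of the 8 hyaluronan genes in 18 libraries by vector and treatment; open points are libraries without and filled points with TGF-β, and bars are the mean and SD of 3 libraries. Has2 lies between 1.71 and 2.4 CPM in the 9 libraries without and between 10.6 and 21.3 CPM in the 9 with TGF-β, whereas Has3 and Cemip show no such separation.

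Has2, the synthase known as the main source of hyaluronan in many fibroblasts (ENSMUSG00000022367, chr15:56665627-56694539, minus strand), showed the widest change. In libraries c, d and e with the empty vector it was at 2.19, 2.31 and 1.71 CPM without and at 15.7, 12.9 and 21.3 CPM with TGF-β. With Col1a1-miR-29b it was at 2.01, 2.4 and 2.4 CPM without and at 10.6, 13.1 and 12.7 CPM with TGF-β. With CMV-miR-29b the values were 1.87, 1.98 and 1.85 CPM without and 12.3, 14.5 and 11.6 CPM with TGF-β. The treated libraries all lay above the untreated ones, and among treated libraries only empty vector libraries c and e lay above every library of the miR-29b vectors. The log2 fold changes were 3.01 (SE 0.18, edgeR adjusted p = 2.96e-08), 2.42 (SE 0.18, adjusted p = 4.46e-07) and 2.75 (SE 0.18, adjusted p = 9.13e-08) in that order of vectors. The rise passed the test in all 29 alternative fits with each vector, with log2 fold changes of 1.61 to 3.15, 1.25 to 2.51 and 1.39 to 2.81. The lowest of each came from limma on log2(FPKM + 1), where the pseudocount shrinks changes of low values, and with log2(FPKM + 0.1) they were 2.70, 2.18 and 2.47.

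Has1 (ENSMUSG00000003665, chr17:17843323-17855205, minus strand) encodes another of the synthases. It was at 0.987, 1.86 and 1.22 CPM in empty vector libraries c, d and e without and at 2.43, 3.95 and 3.09 CPM with TGF-β, a rise of 2.33-fold (log2 fold change 1.22, SE 0.28, edgeR adjusted p = 0.0162) between groups that did not overlap. The call rests on few libraries. The adjusted p became 0.0854 without empty vector library c, 0.0795 without e, 0.0622 without treated library d and 0.0517 without treated library e. With Col1a1-miR-29b Has1 was at 1.93, 2.79 and 3.76 CPM without and at 3.23, 4.16 and 3.25 CPM with TGF-β (log2 fold change 0.33, SE 0.28, adjusted p = 0.704). In the CMV-miR-29b libraries it was at 1.8, 2.75 and 2.19 CPM without and at 3.45, 2.62 and 3.64 CPM with TGF-β (log2 fold change 0.53, SE 0.28, adjusted p = 0.397). In both miR-29b vectors the treated and untreated libraries overlapped.

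Has3 (ENSMUSG00000031910, chr8:106870242-106882902, plus strand), a synthase known for shorter chains, ranged from 3.30 to 5.71 CPM over the 18 libraries. Its log2 fold changes with TGF-β were 0.25 (SE 0.16), 0.08 (SE 0.16) and 0.17 (SE 0.16) for the empty vector, Col1a1-miR-29b and CMV-miR-29b, with edgeR adjusted p from 0.51 to 0.921. The 95% intervals reached at most 0.59, so a rise of the size seen for Has2 lay outside them.

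The mix of synthase transcripts changed with treatment. Summed over the 3 synthases, FPKM rose from 1.22 ± 0.13 to 4.63 ± 0.76 with the empty vector (SD, n = 3), and libraries did not overlap. The Has2 share of this sum went from 31% to 41.2% without TGF-β to 63.4% to 79.4% with it, and the Has3 share from 37.4% to 48.4% to 9.9% to 18.6%. The same was measured with CMV-miR-29b, where Has2 made up 26.9% to 29.5% without and 64.2% to 72.8% with TGF-β. With Col1a1-miR-29b, where FPKM values of 2 libraries a group were used, the share was 31.1% to 31.9% and 64.2% to 66.2%. No test was run on these shares, which follow from the levels above.

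**Figure D2:**
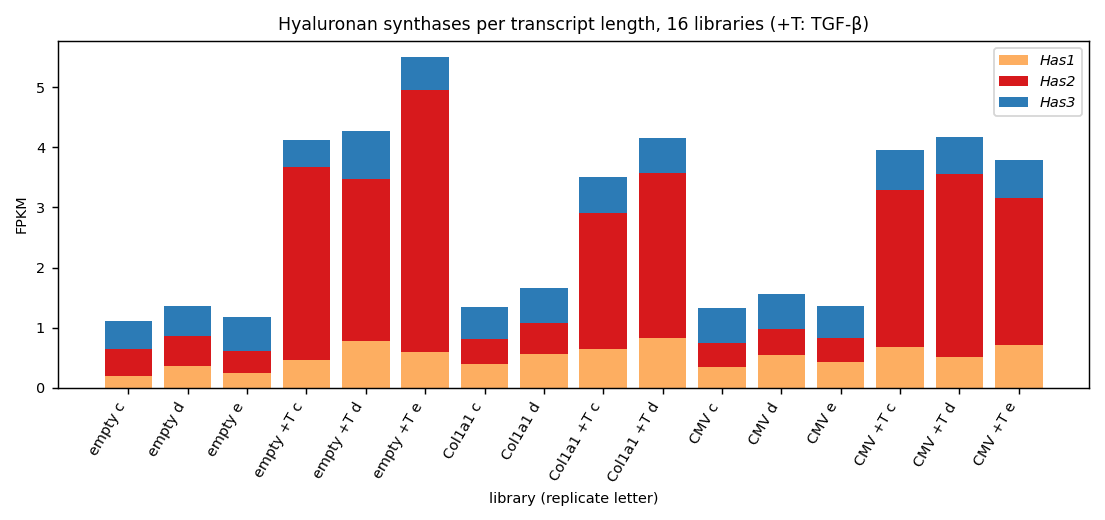
Stacked FPKM (y axis) of Has1, Has2 and Has3 in each of 16 libraries (x axis), with +T for TGF-β. Has2 makes up 26.9% to 41.2% of a bar without and 63.4% to 79.4% with TGF-β, and the untreated bars reach at most 1.66 FPKM.

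Has2os is the antisense transcript of the Has2 locus, and it rose with Has2. It was at 0.937, 1.06 and 1.02 CPM without and at 2.68, 4.15 and 2.96 CPM with TGF-β in the empty vector libraries (log2 fold change 1.70, SE 0.29, edgeR adjusted p = 0.00144), and rose by 2.19 (SE 0.29) and 1.36 (SE 0.28) on the log2 scale with Col1a1-miR-29b and CMV-miR-29b. The treated libraries lay above the untreated ones with each vector. The exons of Has2 and Has2os share 182 bases on opposite strands; the kit keeps strand, but whether the counting used it is not stated, so that reads of this stretch cannot be told apart. Has2os had 0.495 counts for each Has2 count in the empty vector libraries without TGF-β (0.429 to 0.597) and 0.21 with it (0.139 to 0.321). With CMV-miR-29b the ratio was 0.63 (0.428 to 0.993) and 0.239 (0.227 to 0.262), and libraries did not overlap for these vectors. With Col1a1-miR-29b it was 0.315 (0.26 to 0.383) and 0.277 (0.195 to 0.376), and the libraries overlapped. No test was run on these ratios.

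Of the genes for hyaluronan breakdown, Hyal1 passed the test with 1 vector and Hyal2 and Cemip with none. Hyal1 (ENSMUSG00000010051, chr9:107576927-107581710, plus strand), a lysosomal hyaluronidase, was at 36.9, 43.5 and 34.9 CPM without and at 44.8, 50.4 and 48.2 CPM with TGF-β in the empty vector libraries, and these did not overlap. Its log2 fold change was 0.32 (SE 0.10, edgeR adjusted p = 0.0914) there and 0.32 (SE 0.10, adjusted p = 0.106) with Col1a1-miR-29b. It rose with CMV-miR-29b, from 35.8, 35.8 and 33.9 CPM to 49.3, 49.1 and 48.8 CPM (log2 fold change 0.48, SE 0.10, adjusted p = 0.00971). Without untreated CMV-miR-29b library e that adjusted p was 0.0509, and without untreated empty vector library d the one for the empty vector was 0.0472. Values for Hyal1 are uncertain, since 1920 of its exon bases also belong to Naa80, an acetyltransferase gene on the same strand with 1619 to 2547 counts a library, and 159 to Hyal3. Naa80 itself had log2 fold changes of 0.10 (SE 0.12), 0.34 (SE 0.12) and 0.29 (SE 0.12) with TGF-β, none past the threshold.

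Hyal2 (ENSMUSG00000010047, chr9:107567945-107572779, plus strand), a membrane-anchored hyaluronidase, scattered more. It was at 13.3, 12 and 12.1 CPM without and at 15.6, 16.7 and 11.2 CPM with TGF-β in the empty vector libraries. In the other untreated groups single libraries were low or high, at 6.76 CPM in the unlettered Col1a1-miR-29b library and at 14.3 CPM in CMV-miR-29b library c. Its log2 fold changes were 0.22, 0.43 and 0.65 (each SE 0.24), and edgeR's adjusted p ran from 0.17 to 0.758. Cemip (ENSMUSG00000052353, chr7:83932857-84086502, minus strand), which drives hyaluronan breakdown at the cell surface of skin fibroblasts, had only 8 to 34 counts a library, or 0.109 to 0.46 CPM. Its log2 fold changes of -0.17, 0.26 and -0.32 carried an SE of 0.48, and the 95% intervals ran from -1.19 to 0.85 with the empty vector, from -0.77 to 1.29 with Col1a1-miR-29b and from -1.34 to 0.70 with CMV-miR-29b. Cemip2, a membrane protein related to Cemip, was far better covered at 36.4 to 56.2 CPM, and its log2 fold changes with TGF-β were 0.09, 0.27 and 0.24 (each SE 0.10) with no adjusted p under 0.174.

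Cd44 (ENSMUSG00000005087, chr2:102811141-102901665, minus strand), the main hyaluronan receptor, rose with every vector. It was at 174, 165 and 164 CPM without and at 277, 262 and 279 CPM with TGF-β in the empty vector libraries (log2 fold change 0.70, SE 0.09, edgeR adjusted p = 0.000172), a 1.63-fold rise. With Col1a1-miR-29b it was at 177, 173 and 171 CPM without and at 248, 264 and 260 CPM with TGF-β (log2 fold change 0.57, SE 0.09, adjusted p = 0.00158). With CMV-miR-29b the values were 172, 151 and 161 CPM without and 275, 191 and 257 CPM with TGF-β (log2 fold change 0.58, SE 0.09, adjusted p = 0.00121). The groups did not overlap with any vector, though treated CMV-miR-29b library d stood well below its partners. That library also had the fewest counts of all 18.

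Vcan (ENSMUSG00000021614, chr13:89655312-89742509, minus strand), which ties hyaluronan into larger aggregates, was scarce for its length, with 69 to 212 counts a library. It was at 1.66, 1.92 and 1.39 CPM without and at 2.98, 2.32 and 2.69 CPM with TGF-β in the empty vector libraries, which did not overlap, yet its log2 fold change of 0.68 (SE 0.26) had an edgeR adjusted p of 0.174. The log2 fold changes with Col1a1-miR-29b and CMV-miR-29b were 0.43 and 0.63 (each SE 0.26), with adjusted p of 0.541 and 0.245.

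In counts over the set, 3 of 8 genes rose with TGF-β with the empty vector (Has1, Has2 and Cd44), 2 with Col1a1-miR-29b (Has2 and Cd44) and 3 with CMV-miR-29b (Has2, Hyal1 and Cd44), and none fell. Among all 21161 genes 3.88% rose and 2.01% fell with the empty vector, 3% and 1.32% with Col1a1-miR-29b and 3.08% and 1.87% with CMV-miR-29b. With the empty vector the 820 genes called higher and 425 lower became 672 and 593 with total-count scaling and 618 and 540 with limma on log2(FPKM + 1), and the 1245 calls became 725 without treated library e and 618 with the groups compared alone. With Col1a1-miR-29b 914 calls became 394 with the replicate block, 453 without both unlettered libraries and 494 with limma on log2(FPKM + 1), and with CMV-miR-29b 1047 became 527 with the groups compared alone. The median log2 fold change of the 8 genes was 0.50, 0.38 and 0.55 for the same vectors, beside 0.0023, -0.0056 and -0.0025 over all genes. Has2 and Cd44 were the members called with all 3 vectors. These comparisons share no libraries, but they share 1 fit and its estimate of the spread, so the calls are not fully independent. With the groups compared alone Cd44 was not called with CMV-miR-29b (edgeR adjusted p = 0.0882). Asking also for a change of at least 2-fold left Has1 and Has2 with the empty vector and Has2 alone with the others. The share of all genes past that criterion was not counted, nor was the share called with all 3 vectors.

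**Figure D3:**
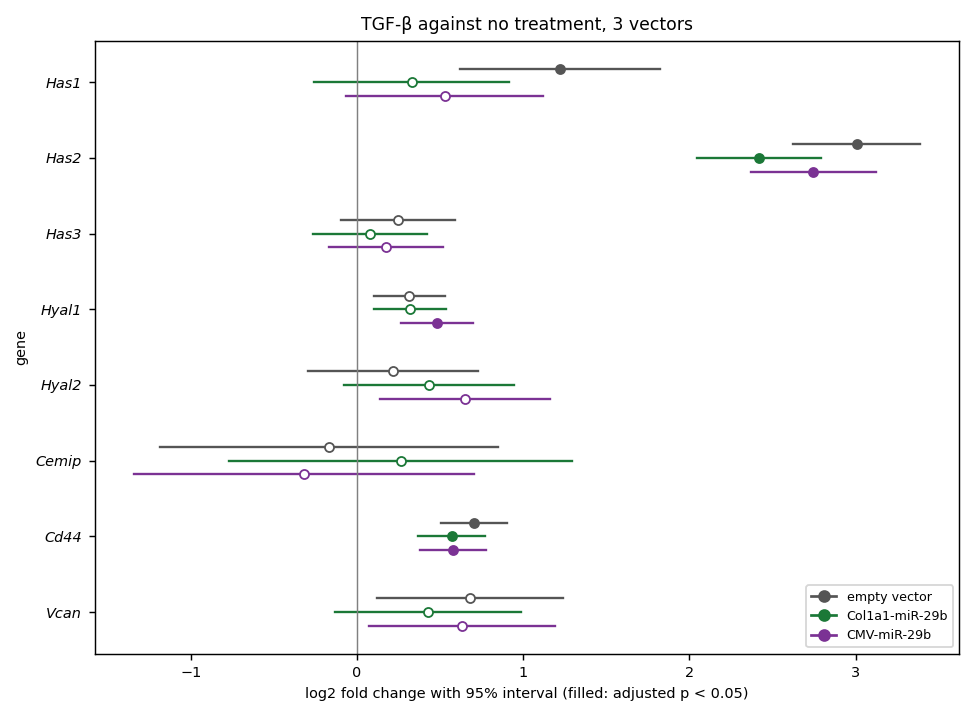
Log2 fold change with TGF-β (x axis) for each of the 8 genes (y axis) and 3 vectors; lines are 95% intervals and filled points have an adjusted p under 0.05. Has2 stands apart at 2.42 to 3.01, and the Cd44 intervals all lie above 0.

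The next question was whether the miR-29b vectors changed these genes or their answer to TGF-β. Without TGF-β, Has1 was higher with Col1a1-miR-29b than in empty vector libraries by 1.06 on the log2 scale (SE 0.28, edgeR adjusted p = 0.0377), or 2.09-fold, and it was the only one of the 8 genes past the threshold. The groups were separated only by the gap between 1.86 CPM in empty vector library d and 1.93 CPM in Col1a1-miR-29b library c. The call held in 17 of 29 alternative fits. The adjusted p was 0.152 without empty vector library c, 0.108 without e, 0.103 without Col1a1-miR-29b library d and 0.155 without its unlettered library, where the log2 fold change was 0.80, and it was 0.0504 without either of 2 libraries outside the comparison, the unlettered Col1a1-miR-29b library with TGF-β and CMV-miR-29b library c with TGF-β. In this comparison 2.57% of all genes were called higher and 3.7% lower, and these shares depended on the fit. The 543 higher and 784 lower genes became 679 and 643 with total-count scaling, 305 and 176 with limma on log2(FPKM + 1) and 239 and 151 on log2(FPKM + 0.1). The total of 1327 became 468 without empty vector library c and 567 without d, and 823, 482 and 640 without Col1a1-miR-29b library c, d and the unlettered one. It was 161 with the replicate block, 397 without both unlettered libraries, 782 with the groups compared alone and 2346 by DESeq2. With CMV-miR-29b the log2 difference of Has1 was 0.73 (SE 0.28, unadjusted p = 0.0205, adjusted p = 0.828), libraries overlapped, and none of the 8 genes was called by edgeR or by DESeq2, with 1 of 8 at an unadjusted p under 0.05. That comparison called 0.00473% of all genes, 1 by edgeR and 43 by DESeq2, and 1156 of 21161 had an unadjusted p under 0.05 by edgeR.

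With TGF-β present none of the 8 genes was called between either miR-29b vector and the empty vector by edgeR. Has2 was lower with Col1a1-miR-29b by a log2 difference of -0.45 (SE 0.16, 95% interval -0.80 to -0.10, unadjusted p = 0.0143, adjusted p = 0.0851), and with CMV-miR-29b by -0.38 (SE 0.16, interval -0.73 to -0.03, unadjusted p = 0.0341, adjusted p = 0.375). Each was the only one of the 8 genes with an unadjusted p under 0.05 in its comparison, both comparisons use the same empty vector libraries, and the libraries overlapped in both. DESeq2 called the first (adjusted p = 0.0416) and not the second. Without treated empty vector library d the first became -0.61 with an adjusted p of 0.0186. The background was 5.31% of all genes higher and 7.63% lower with Col1a1-miR-29b, and 0.00945% called with CMV-miR-29b. With Col1a1-miR-29b the 1123 higher and 1615 lower genes became 1469 and 1323 with total-count scaling, 1004 and 748 with limma on log2(FPKM + 1) and 315 and 757 with the groups compared alone. The total of 2738 became 1666 without treated empty vector library c and 1291 without e, 1498 without treated Col1a1-miR-29b library c and 1810 without its unlettered partner, and it was 1152 with the replicate block. With CMV-miR-29b 2 genes were called, against 160 without treated empty vector library d and 274 by DESeq2.

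Vcan and Cd44 were not called between vectors. With TGF-β the log2 difference of Vcan from the empty vector was -0.42 (95% interval -0.97 to 0.14) with Col1a1-miR-29b and -0.25 (interval -0.80 to 0.31) with CMV-miR-29b, and that of Cd44 was -0.08 (interval -0.28 to 0.12) and -0.18 (interval -0.38 to 0.02). The intervals of Cd44 exclude a change of 2-fold in either direction. The 4 genes with a seed match were not set beside genes without one, so nothing about miR-29b is read from their signs. Without TGF-β, Mir29b-1 also had only 0 to 1 counts in the Col1a1-miR-29b libraries. The 16 log2 differences of these 4 genes from the empty vector (2 vectors, with and without TGF-β) ran from -0.45 to 0.17. Of them 8 were below 0, and none passed the threshold by edgeR. Neither did any of the 8 genes differ between CMV-miR-29b and Col1a1-miR-29b by edgeR or DESeq2, with 0 of 8 at an unadjusted p under 0.05 without and with TGF-β, where 1.81% and 1.93% of all genes were called. Those 382 and 408 genes ranged over the alternatives from 18 and 13 to 1198 and 1129 by DESeq2. Among all 21161 genes 3478 without and 3305 with TGF-β had an unadjusted p under 0.05 by edgeR.

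The size of the TGF-β response was then compared between vectors by the interaction term. For Has2 the response with Col1a1-miR-29b minus that in empty vector cells was -0.59 on the log2 scale (SE 0.24, 95% interval -1.09 to -0.08, unadjusted p = 0.0256), and that of Has1 differed by -0.89 (SE 0.39, interval -1.73 to -0.05, unadjusted p = 0.0385); both had an edgeR adjusted p of 0.9999. With CMV-miR-29b these differences were -0.26 (SE 0.24) and -0.69 (SE 0.39), with adjusted p of 0.945 and 0.929. None of the 8 genes was called in either interaction by edgeR or DESeq2, and 2 and 0 had an unadjusted p under 0.05. Among all genes 0% were called by edgeR in both, 961 and 1129 genes had an unadjusted p under 0.05, and DESeq2 called 27 and 19. A difference in response between vectors was therefore not shown for any of the 8 genes.

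**Figure D4:**
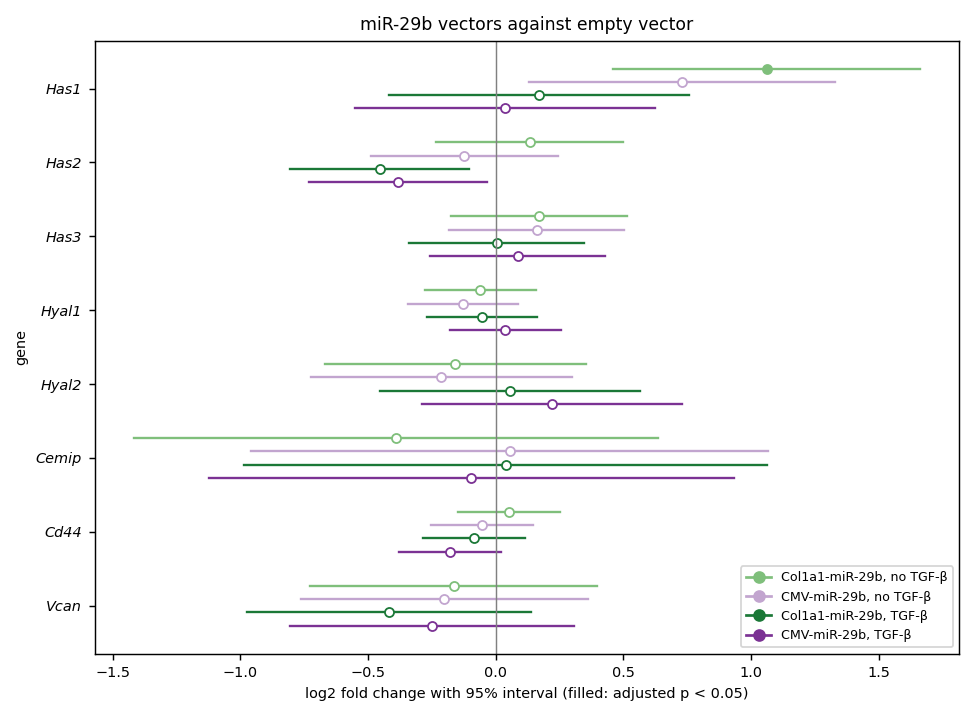
Log2 difference of each miR-29b vector from the empty vector (x axis) for the 8 genes (y axis), with and without TGF-β; lines are 95% intervals and filled points have an adjusted p under 0.05. Has1 with Col1a1-miR-29b and no TGF-β, at 1.06, is the one filled point, and the intervals of Cemip, at 8 to 34 counts, are the widest.

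Other genes of the hyaluronan pathway were read from 7 lists, of which 66 genes were tested; 18, 15 and 19 were called with TGF-β with the empty vector, Col1a1-miR-29b and CMV-miR-29b, where 5.88%, 4.32% and 4.95% of all genes were called in either direction. Among 8 listed symbols for further enzymes and regulators 7 were in the table, 3 were tested and 3 had 0 counts throughout, and Has2os was the one that rose. Of 23 hyaluronan-binding proteins and receptors 14 were tested. With each vector Stab1, a scavenger receptor of the stabilin family, rose and Ptx3, a pentraxin that takes part in hyaluronan-rich matrix, fell. Ptx3 went from 20.7, 15.6 and 19.6 CPM to 4.72, 4.61 and 4.9 CPM in the empty vector libraries (log2 fold change -1.97, SE 0.16, edgeR adjusted p = 9.58e-07), and its log2 fold changes were -1.63 and -1.87 (each SE 0.16) with Col1a1-miR-29b and CMV-miR-29b. Stab1 went from 6.11 ± 0.29 to 11.6 ± 1.38 CPM (log2 fold change 0.92, SE 0.11), and rose by 1.07 and 1.10 (each SE 0.11) with the other vectors. Treated and untreated libraries did not overlap for either gene. The median log2 fold change of the tested list was -0.27, -0.12 and -0.083 for the 3 vectors. The endothelial hyaluronan receptor Lyve1 had no more than 4 counts in any library.

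Genes that supply the UDP-sugars were all well covered, and 15 of 15 were tested. With the empty vector 4 rose and none fell: Gfpt2 (log2 fold change 0.56, SE 0.06) and Gfpt1 (0.16, SE 0.04), the entry enzymes of the hexosamine pathway, Hk2, a hexokinase (0.32, SE 0.04), and Pgm3, a mutase of the same pathway (0.29, SE 0.05). With Col1a1-miR-29b 3 rose (Gfpt2, Hk2 and Pgm3) and none fell, and with CMV-miR-29b 4 rose and 3 fell, with Gfpt2 at 0.57 (SE 0.06), Pgm3 at 0.24 (SE 0.05), Gfpt1 at 0.18 (SE 0.04) and Uap1l1 at -0.22 (SE 0.05) the widest changes. The list medians were 0.098, -0.0067 and 0.023. Gfpt1 with the empty vector was close to the threshold, with an edgeR adjusted p of 0.0499.

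Proteases that cut versican were among the genes that fell. Of 6 listed ADAMTS genes 5 were tested, and with the empty vector Adamts5, Adamts9 and Adamts1 fell, by a log2 fold change of -1.43 (SE 0.09, edgeR adjusted p = 5.36e-08), -0.46 (SE 0.07) and -0.33 (SE 0.07). Adamts5 was at 40.6, 35.1 and 38 CPM without and at 13.4, 13.9 and 14.8 CPM with TGF-β. With Col1a1-miR-29b and CMV-miR-29b Adamts5 (-1.06 and -1.22, each SE 0.09) and Adamts9 (-0.37 and -0.44, each SE 0.07) fell. The list medians were -0.46, -0.12 and -0.40. Among 5 lysosomal exoglycosidases, which finish the breakdown of hyaluronan fragments, Gusb, the β-glucuronidase, rose by 0.22 (SE 0.06) with the empty vector and by 0.22 (SE 0.06) with CMV-miR-29b, with edgeR adjusted p of 0.0484 and 0.0481, and no other passed; the list medians were 0.015, 0.06 and -0.0055.

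Of 10 partners and sheddases of Cd44 all were tested. Moesin (Msn), which links Cd44 to actin, rose by 0.61, 0.49 and 0.53 (each SE 0.04) with the 3 vectors, and Mmp14, a membrane protease that can cut Cd44, by 0.64, 0.63 and 0.58 (each SE 0.07). Ezrin (Ezr), a relative of moesin, fell, with log2 fold changes of -0.30, -0.25 and -0.25 (each SE 0.03). Srgn, a proteoglycan that can bind Cd44, fell with Col1a1-miR-29b only by this threshold, from 0.764 to 0.251 CPM (log2 fold change -1.60, SE 0.40, edgeR adjusted p = 0.0347), and the difference between vectors was not called. The list medians were 0.07, 0.12 and -0.019.

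Versican carries chondroitin sulfate, and of 20 genes for that chain 14 were tested. With the empty vector 4 rose: Chst11, a 4-O-sulfotransferase (18.2 ± 0.97 to 36.4 ± 4.77 CPM, 95% interval of the log2 fold change 0.79 to 1.21), Chst3, a 6-O-sulfotransferase (0.66, SE 0.09), the chondroitin synthase Chsy1 (0.49, SE 0.06) and B4galt7, which builds the linker to the core protein (0.42, SE 0.09). Chst11 (0.84 and 0.87, each SE 0.10), Chst3 (0.53 and 0.80, each SE 0.09) and Chsy1 (0.27 and 0.40, each SE 0.06) rose with the other vectors too. None of the tested genes fell, and the list medians were 0.077, 0.11 and 0.071.

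**Figure D5:**
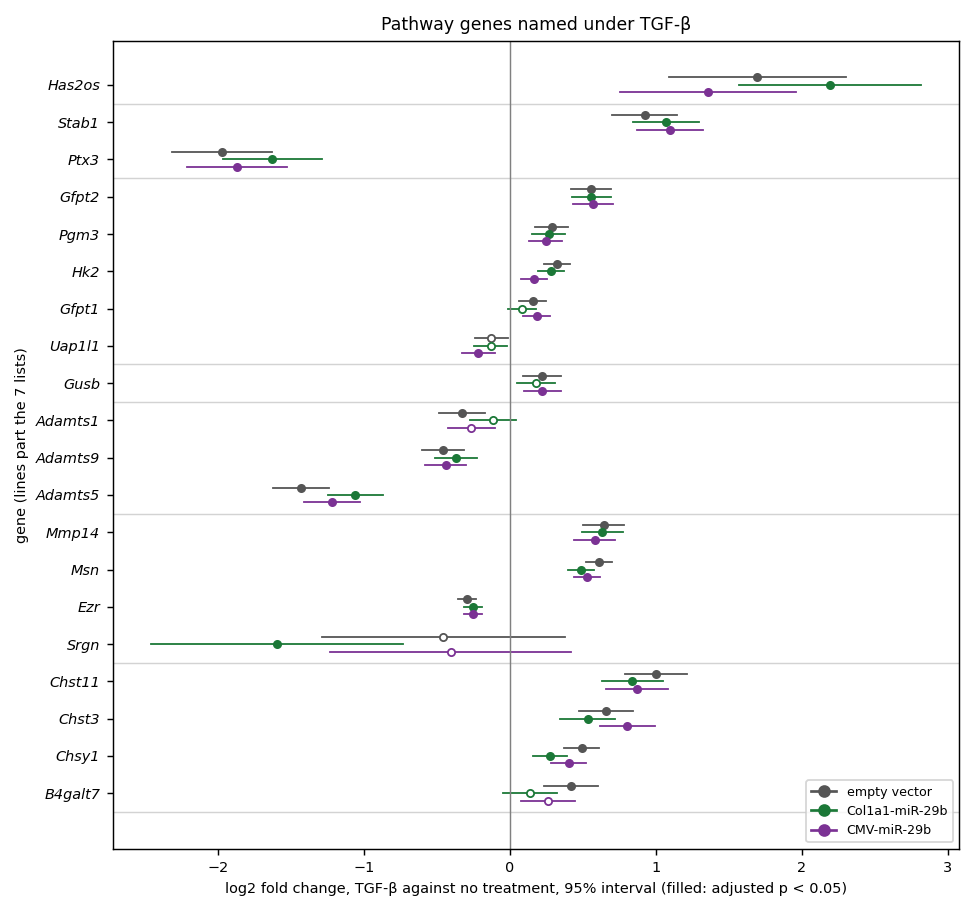
Log2 fold change with TGF-β (x axis) for the pathway genes named by rule (y axis, grey lines part the 7 lists) with 3 vectors; lines are 95% intervals and filled points have an adjusted p under 0.05. Has2os, at 1.36 to 2.19, lies farthest to the right and Ptx3, at -1.97 to -1.63, farthest to the left with all 3 vectors filled.

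Against the empty vector, 7 of the 66 listed genes were called with Col1a1-miR-29b without and 20 with TGF-β, where 6.27% and 12.9% of all genes were called. Without TGF-β 4 UDP-sugar genes were lower with Col1a1-miR-29b (Hk2 by a log2 difference of -0.26, Uap1 by -0.22, Pgm1 by -0.20 and Gpi1 by -0.18), Mmp14 was lower (-0.33, SE 0.07), and Gusb (0.26, SE 0.06) and Adamts4 (0.45, SE 0.13) were higher. With TGF-β 5 UDP-sugar genes were lower, with Hk1 (-0.38, SE 0.08) and Hk2 (-0.30, SE 0.04) the widest, and Hmmr, the hyaluronan-mediated motility receptor, was lower by -0.20 (SE 0.05). Among versican proteases Adamts4 (0.40, SE 0.13), Adamts5 (0.39, SE 0.09) and Adamts1 (0.32, SE 0.07) were higher with Col1a1-miR-29b than in empty vector cells under TGF-β. Of the chondroitin sulfate genes 4 were lower, with Chst11 (-0.42, SE 0.10), Dse (-0.36, SE 0.07) and Chst3 (-0.32, SE 0.09) the widest, and 2 higher, of which Chst14 (0.43, SE 0.12) was the widest. Of the Cd44 partners Mmp14 (-0.34, SE 0.07), Msn (-0.16, SE 0.04) and Rdx (-0.10, SE 0.03) were lower and Ezr (0.13, SE 0.03) higher, and Gusb was higher by 0.22 (SE 0.06). None of the 66 was called with CMV-miR-29b against the empty vector by edgeR or DESeq2. By edgeR 5 had an unadjusted p under 0.05 without and 14 with TGF-β, beside 1156 and 2531 of all 21161 genes. Since that comparison called 0.00473% and 0.00945% of all genes, nothing is read from these counts about the listed genes. Between the 2 miR-29b vectors themselves, where DESeq2 called 5 listed genes without and 4 with TGF-β, edgeR called Hk2 without TGF-β (0.27, SE 0.04) and Gfpt1 with TGF-β (0.19, SE 0.04), both higher with CMV-miR-29b.

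Genes with a pattern over the 6 groups most like that of a called member were sought among 13905 other genes averaging at least 1 CPM, by the root mean square difference between group means of log2 CPM, each gene centred on its own mean. Closest to Has2 were Pmepa1, a known target and inhibitor of TGF-β signalling, at 0.118, and Lrp2bp at 0.122, where Has2 itself varied by 1.36 around its mean. Closest to Cd44 were the kinase gene Dyrk3 at 0.0266 and the tropomyosin gene Tpm1 at 0.0323, where Cd44 varied by 0.313. For Has1, which varied by 0.474, the closest were Celf5 at 0.0907 and Lor at 0.162.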

How the data were processed

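Poly(A) RNA libraries were made with a stranded TruSeq kit and sequenced as read pairs. The authors trimmed reads with cutadapt and Perl scripts, checked them with FastQC, mapped them with HISAT2 to the Ensembl release 96 mouse genome and assembled them with StringTie (versions and the counting step are not given in the sources used here). The submitters' processing notes name build mm9, but all 55450 genes of the table are in GENCODE M21 and 52506 have its GRCm38 coordinates, so GRCm38 was used. The deposited counts are whole numbers per gene without normalization; the deposited FPKM values are the authors' own normalization. Among counts from 1 to 40, 33.8% to 36.7% a library were multiples of 4 (25% by chance), so precision may be overstated, and counts divided by 4 were tried. 2 FPKM columns whose letter occurs in no title were not used, although the count columns with that letter were used as the unlettered libraries.

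Counts were tested with edgeR 4.0.16 (TMM scaling, filterByExpr, quasi-likelihood test, 18 libraries in 1 model). Alternatives were DESeq2 1.42.0, limma 3.58.1 on log2(FPKM + 1) and log2(FPKM + 0.1) over 16 libraries, other scalings and filters, groups fitted alone, the replicate letter as a block, each library left out, and a 2-fold threshold; leaving out both unlettered libraries was added after seeing the data. Replicates of a group correlated at 0.973 to 0.977 (log2 CPM), and none differed by as little as sampling noise. The 8 genes and the 7 lists were chosen with earlier results of these data known. Named from each list were up to 4 called genes a comparison with the largest log2 change, and 2 genes of like pattern for each member called with TGF-β and the empty vector; Mir29b-1, Acta2 and Col1a1 were checks. A library with 3 counts or fewer of a gene was taken as not detecting it. Sequences came from RefSeq and GENCODE; protein sequences were not used here.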

Additional observations from a re-analysis of the deposited data

How the results depend on the processing

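Counts were lowest for Cemip, at 8 to 34 a library, followed by Vcan at 69 to 212 and Has1 at 79 to 307. The part of depth in the results for these genes was not tested. The counts of members called per comparison stayed within 1.5 times their main value in 312 alternative counts and moved in 18. Many of the 312 were a count of 0 that stayed 0, and a change from 3 to 2 was taken as staying. A loss of Has1 for TGF-β with the empty vector, called in 24 of 29 alternative fits, was thus not taken as a move. The 312 are therefore no measure of how firm the calls are. For TGF-β with Col1a1-miR-29b the count of 2 became 1 with limma on either FPKM scale and with a 2-fold threshold, and for TGF-β with CMV-miR-29b the count of 3 became 1 with that threshold. For Col1a1-miR-29b against the empty vector without TGF-β the count of 1 became 0 with the filter of at least 1 count in any library, with the groups compared alone, with the replicate block, without both unlettered libraries and with limma on either FPKM scale, and it ranged from 0 to 1 on leaving out single libraries. With TGF-β the count of 0 became 1 with DESeq2 and ranged from 0 to 1 on leaving out single libraries. The causes were not tested.

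The same-letter libraries of different groups deviated together with a mean correlation of 0.015 (36 pairs, -0.135 to 0.155), against -0.0081 for different letters. Any deviation shared by a letter was thus small on average, and whether the letters pair the libraries was not tested. With the replicate letter as a block, over 16 lettered libraries, 3, 2 and 3 members were called for TGF-β with the empty vector, Col1a1-miR-29b and CMV-miR-29b and 0 in the other 8 comparisons.

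Among single genes no called value changed sign in the alternatives run. Single genes were followed through the alternatives for every member only between TGF-β and no treatment. Against the empty vector only Has1, Has2, Vcan and Cd44 were followed, and in the interactions only Has1 and Has2. No single gene was followed between CMV-miR-29b and Col1a1-miR-29b. Among the values followed, some uncalled ones crossed 0 on leaving out single libraries. With TGF-β these were Has3 with the empty vector (-0.0121 to 0.41) and Cemip with Col1a1-miR-29b (-0.0875 to 0.68). Against the empty vector they were Vcan with Col1a1-miR-29b without TGF-β (-0.49 to 0.0675) and Has1 with CMV-miR-29b with TGF-β (-0.12 to 0.225). Cd44 lost its call with limma with Col1a1-miR-29b (adjusted p = 0.0564 and 0.0557) and with groups compared alone with CMV-miR-29b (adjusted p = 0.0882), and Has1 with the empty vector with groups compared alone (adjusted p = 0.0943). Hyal1 was called by DESeq2 with the empty vector (adjusted p = 0.0456) and with Col1a1-miR-29b (adjusted p = 0.0463).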
